A study of Mus musculus with 12 samples.

Results

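Most mouse genes are split into exons that are joined by splicing, whereas the transcript of a single-exon gene is copied from the genome in 1 uninterrupted piece. N6-methyladenosine (m6A), the most common internal mark of mRNA, is written in the nucleus by METTL3 with METTL14 and WTAP at adenosines of short motifs such as GGACU, and protein complexes that sit on exon junctions keep much of the surrounding RNA from being methylated. A transcript without junctions carries no such complexes, and many receptors, transcription factors, histones and mitochondrial genes are of this kind. The m6A peaks described here are those that the deposited annotation put in "exon 1 of 1", in genes with a name of their own. Predicted genes (Gm followed by digits), Riken clones and pseudogenes marked -ps were left out. There were 882 such peaks among 33622 peaks of WT hippocampus (2.62%), in 599 genes, and 973 among 34935 peaks of *Tyrobp-/-* hippocampus (2.79%), in 619 genes. Of the 5640 rows of the deposited table that compares the genotypes, 127 met the same rule, in 117 genes.

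The peaks came from MeRIP-seq, in which poly(A) RNA is fragmented, fragments with m6A are pulled down with an antibody (the IP library), and the fragments are sequenced beside RNA that was not pulled down (the input library). The mice were C57BL/6 males, 6 months old, either WT or carrying a small deletion in *Tyrobp* on both alleles (*Tyrobp-/-*), a gene for a microglial signalling adaptor, and the WT mice were their age-matched littermates. Each genotype had 3 samples, and each sample was RNA pooled from the hippocampi of 3 mice. The 12 libraries held 61189368 to 73554506 valid reads. Peaks were called on the 3 samples of a genotype together, so every peak has 1 fold enrichment (IP over input) and 1 FDR in each genotype. No value has a replicate error, and no difference between genotypes was tested. Intervals in brackets are exact 95% binomial intervals (Clopper-Pearson) and cover counting error only. *Tyrobp* itself had 0 peaks in both lists, and neither the knockout nor the tissue was checked against expression here.

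The label "single-exon gene" held for only some of these peaks. The annotation names the transcript whose exon holds the peak and, in a separate column, the gene to which the peak is listed. In WT mice 332 of the 882 peaks (37.6%) lay in the exon of the listed transcript, 177 (20.1%) in an unspliced transcript model of a gene listed with another transcript, and 373 (42.3%) in an exon of a different gene. In *Tyrobp-/-* mice these counts were 363, 175 and 435 of 973 peaks. Of the peaks in an exon of a different gene, 85.8% (WT) and 86.0% (*Tyrobp-/-*) lay wholly within the RefSeq span of the gene they were listed to, so most sat inside a longer host gene. The listed genes had a median RefSeq span of 27735 bp in WT mice and 29134 bp in *Tyrobp-/-* mice. Where the exon was that of the listed transcript, 111 of 177 genes of the WT list that matched RefSeq had a RefSeq span within 1.2 times that exon. These held 157 peaks (17.8% of 882, interval 15.3 to 20.5), and the corresponding 102 genes of the *Tyrobp-/-* list held 161 peaks (16.5% of 973, interval 14.3 to 19.0). The stacked counts by owner of the exon show this division.

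**Figure D1:**
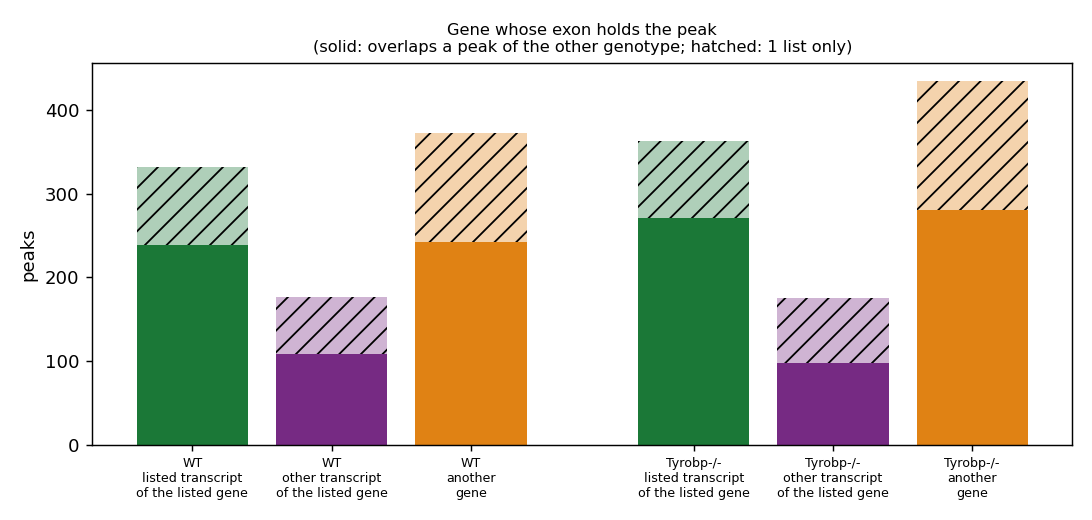
Number of single-exon peaks of named genes (y axis) by the owner of the exon, for WT (left) and Tyrobp-/- (right). Solid bars are peaks that overlap a peak of the other genotype and hatched bars those found in 1 list only. In both genotypes the tallest bar is that of exons of another gene (373 and 435 peaks).

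MicroRNA genes encode short hairpins that are cut into mature microRNAs, and their sequences are shown because they say what each of these peaks covers. Of 9 genes with a microRNA name and a peak, 8 have a mature sequence in RefSeq (GRCm38.p6). The other, *Mir99ahg*, is a longer microRNA host gene and not a hairpin gene. For 6 mature microRNAs the exonic blocks of a peak covered every base. The capitals mark the seed, bases 2 to 8, with which a microRNA pairs to its targets, and no seed was shared between them.
miR-127-5p: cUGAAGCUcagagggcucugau
miR-5125: uCUGCCUGggauuuccuugu
miR-6244: gGGGGCGUggaauuaucgggu
miR-6363: uGUAGACUggacuguccucaaa
miR-692: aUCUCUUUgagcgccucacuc
miR-8102: uCACGCGGgggaacgaggaaga

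The libraries were made of poly(A) RNA fragments, so these peaks were measured on longer transcripts that contain the microRNA and not on the mature form. *Mir6244* (chr9:52115623-52115739) had a fold enrichment of 8.7 in WT mice and 3.73 in *Tyrobp-/-* mice over the same 117 bp. The 2 peaks of *Mir5125* (chr17:23823291-23823369) differed little, with 4.15 in WT mice and 4.61 in *Tyrobp-/-* mice. *Mir6363* carried the most enriched peak of the group, at 17.8 in WT mice (chr16:50726411-50732353) and 13.7 in *Tyrobp-/-* mice. That peak was 5943 bp wide in WT mice and had 2 blocks, far longer than a microRNA precursor. The peak of *Mir127* (fold enrichment 5.11, WT) covered all of miR-127-5p and 0 bases of miR-127-3p. The peak of *Mir425* (4.42, *Tyrobp-/-*) covered only 5 of the 21 bases of miR-425-3p. The peaks listed to *Mir129-2*, with 4.39 and 3.63, had 4 blocks each that left out both mature arms. *Mir692-2* (9.77) was found in the WT list only and *Mir8102* (5.24) in the *Tyrobp-/-* list only. Both were weak calls, with a log10 FDR of -1.55 for *Mir692-2* and -1.25 for *Mir8102*. The *Mir692-2* peak lay in an exon of another gene, and its fold enrichment was a value that many WT peaks held. Whether either microRNA gene differed between the genotypes was not tested.

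Some of the peaks reached a gene start. Of 32851 windows from 250 bases before to 50 bases after a RefSeq gene start, 45.5% hold GGACT on either strand and 26.1% on the strand of the gene. A peak block overlapped such a window in 35 of 882 peaks of WT mice (3.97%, beside 10.9% of all WT peaks) and in 37 of 973 peaks of *Tyrobp-/-* mice (3.80%, beside 10.3%). All peaks include those labelled 5′ UTR (6348 in WT mice, 6058 in *Tyrobp-/-* mice), which the rule leaves out here. The shares are therefore not of like sets, and no difference is read from them. The window was that of the listed gene for 21 of the 35 WT peaks and 18 of the 37 *Tyrobp-/-* peaks. The WT peaks touched 37 windows, of which 16 (43.2%) held GGACT on either strand and 7 (18.9%) on the gene's own. The *Tyrobp-/-* peaks touched 40 windows, with 17 (42.5%) and 6 (15.0%). Motif matches inside a peak are shown for 4 genes to which the peak was also listed, as 30 bases of GRCm38 with GGACT in capitals. The strand is that of the gene, since none is given for the peak. Not shown are a second *Ifi30* match and a match at *Zfp523*, under a *Tyrobp-/-* peak of 8.1 listed to *AC126937*. All are matches of letters and not mapped sites of methylation.
Hnrnpf, chr6:117906627-117906656, forward strand: ctgtcctctccgGGACTcagaggcgggtcc
Elf2, chr3:51277729-51277758, reverse strand: tgtacagctgcgGGACTaggtatgaggtct
Psmd5, chr2:34871175-34871204, reverse strand: ccacctggcctcGGACTcgggttcagtcat
Ifi30, chr8:70766815-70766844, reverse strand: gctagccgcggaGGACTggaggctggacag

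The *Hnrnpf* motif lay under a WT peak with a fold enrichment of 30.3 (chr6:117905808-117906754) and, in *Tyrobp-/-* mice, under a peak of 6.67 (chr6:117906429-117906724). *Hnrnpf* encodes an RNA-binding splicing factor, and the exon under its WT peak belonged to another gene. The *Elf2* match lay under a WT peak of 11.9, whose exon also belonged to another gene than the listed one. The *Psmd5* match lay under a *Tyrobp-/-* peak of 14.3, and the *Ifi30* match under a WT peak of 5.86. These 4 are all before the RefSeq start of the gene, which the peak itself crosses only for *Ifi30*.

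The median fold enrichment of the single-exon peaks was 6.84 in WT mice (quartiles 3.79 and 9.77) and 6.67 in *Tyrobp-/-* mice (3.81 and 9.53). Over all peaks the medians were 5.54 and 5.72. The peaks were narrow, with a median width of 211 bp in both genotypes beside 408.5 bp and 389 bp over all peaks. Fewer of them had strong peak-calling evidence. An FDR below 1e-05 was reached by 33.2% of the single-exon peaks in WT mice (interval 30.1 to 36.4) and by 27.4% in *Tyrobp-/-* mice (24.7 to 30.4), beside 64.4% and 63.3% of all peaks. An FDR of 0.05 or more was listed for 23.7% and 26.1% of them, beside 10.3% and 11.0% of all peaks. The plot of the cumulative shares shows the higher middle of the distribution and a similar upper end.

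**Figure D2:**
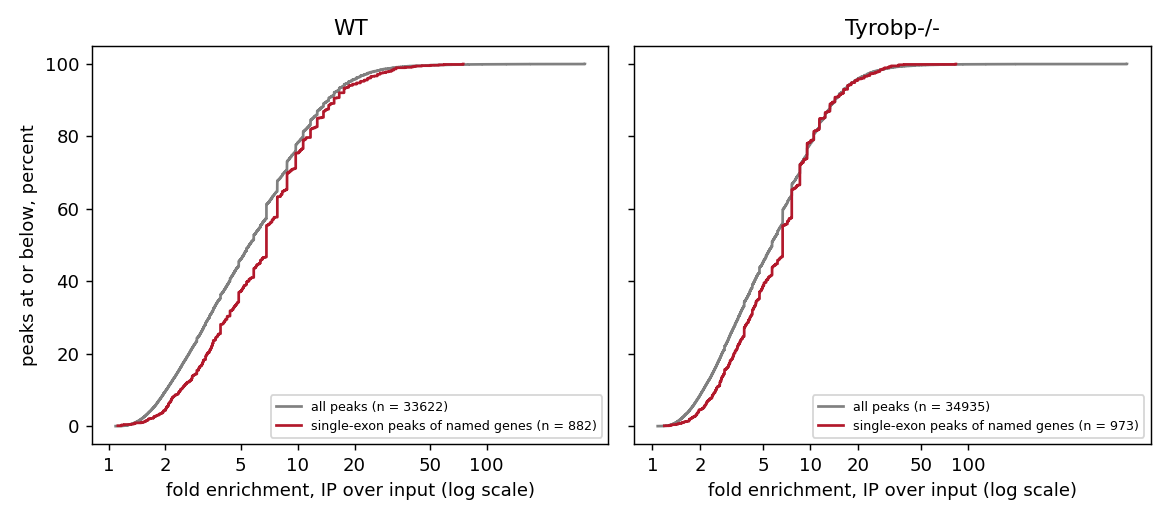
Cumulative share of peaks (y axis, percent) by fold enrichment, IP over input (x axis, log scale), for WT (left) and Tyrobp-/- (right). The red line of the single-exon peaks lies to the right of the grey line of all peaks up to the steps at 6.84 (WT) and 6.67 (Tyrobp-/-), and both lines nearly meet above 20.

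The vertical steps in that plot are values held by many peaks at once. In WT mice 64.3% of the single-exon peaks carried a fold enrichment and p that at least 1 other peak of the list also had, beside 31.9% of all peaks, and in *Tyrobp-/-* mice 67.4% did, beside 33.1%. The pair most often held was 6.84 with a log10 p of -1.42 in WT mice, in 835 peaks of which 62 were single-exon peaks. In *Tyrobp-/-* mice it was 6.67 with a log10 p of -1.39, in 911 peaks of which 59 were single-exon peaks. The next pairs followed at steps of 0.98 and 0.95 (7.81, 8.79 and 9.77 in WT mice, 7.62, 8.58 and 9.53 in *Tyrobp-/-* mice). The reads behind single peaks are not given in the files used here, and their part in these steps was not tested. Among peaks whose pair of values occurred once in the list, the median fold enrichment was 5.16 in WT mice and 4.76 in *Tyrobp-/-* mice.

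Within the exon of the listed transcript, whose median length was 2356 bp in WT mice and 2447 bp in *Tyrobp-/-* mice, peak midpoints lay more often toward the 5′ side. With the exon cut into 5 equal bins from 5′ to 3′, the first 3 held 22.0%, 27.7% and 24.7% of the 332 midpoints in WT mice, and the last 2 held 14.2% and 11.4%. The 363 midpoints of *Tyrobp-/-* mice were divided as 25.3%, 24.5%, 25.1%, 11.3% and 13.8%. Peaks that the annotation put in a 5′ or 3′ UTR carry another label and are not among these midpoints, so the last part of each transcript is represented only by its unlabelled peaks.

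**Figure D3:**
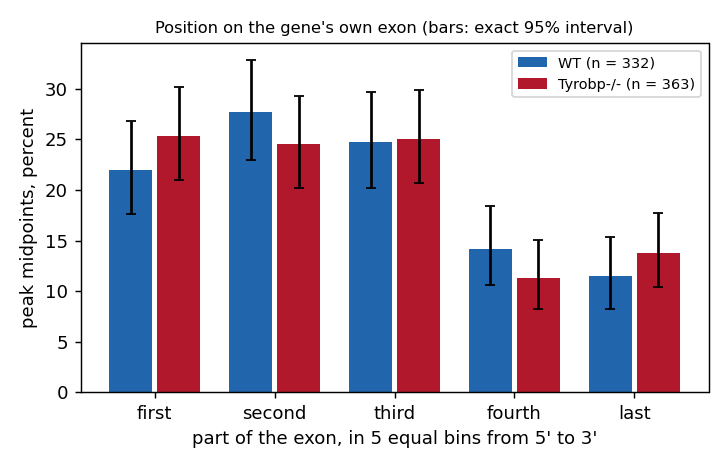
Share of peak midpoints (y axis, percent) in each of 5 equal bins of the exon from 5' to 3' (x axis), for peaks in the exon of the listed transcript, WT in blue (n = 332) and Tyrobp-/- in red (n = 363). Error bars are exact 95% binomial intervals. Each of the first 3 bins holds 22.0% or more and each of the last 2 holds 14.2% or less.

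The families known for unspliced genes were mostly peaked outside of this annotation. Of 324 genes in 8 lists, 277 had a peak of any annotation in either genotype and 63 had a single-exon peak. Transcription factors without introns, such as the Sox, Fox and Pou families, had 122 peaks in WT mice, of which 63 were annotated to the 3′ UTR, 34 to the 5′ UTR and 16 to the single exon. G protein-coupled receptors had 160 WT peaks, 70 in the 3′ UTR, 62 in the 5′ UTR and 13 in the single exon. Mitochondrially encoded genes had no UTR label at all, and all 9 of their WT peaks were single-exon peaks.

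Overlap between the genotypes was counted at 1 bp or more of the genomic span. In WT mice 591 of 882 single-exon peaks (67.0%, interval 63.8 to 70.1) overlapped some peak of *Tyrobp-/-* mice, beside 80.0% of all WT peaks. In *Tyrobp-/-* mice 650 of 973 (66.8%, interval 63.7 to 69.8) overlapped a WT peak, beside 77.9% of all *Tyrobp-/-* peaks. Peaks in the exon of the listed transcript overlapped in 72.0% (WT) and 74.7% (*Tyrobp-/-*) of cases, and peaks in other transcripts of the gene in 61.6% and 56.0%. For peaks in an exon of a different gene the shares were 65.1% and 64.6%. The 291 peaks found only in WT mice had a median width of 175 bp, and 9.28% had an FDR below 1e-05, beside 270 bp and 45.0% for the WT peaks found in both. The 323 peaks found only in *Tyrobp-/-* mice had a median width of 151 bp and 4.95% had such an FDR, beside 241 bp and 38.6%. By gene, 378 were in both lists, which is 63.1% of the 599 WT genes and 61.1% of the 619 *Tyrobp-/-* genes. A row of the comparison table overlapped 14.4% of the single-exon peaks of WT mice, beside 15.4% of all WT peaks, and 15.2% of those of *Tyrobp-/-* mice, beside 16.8%, so their share was near the background. Of the 127 single-exon rows of that table, 112 overlapped a single-exon peak of either list.

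A WT peak and a *Tyrobp-/-* peak were paired when each was the other's largest overlap, which gave 375 pairs with both members in a single exon of a named gene, of 23461 pairs in all. Of these 375, 47 (12.5%, interval 9.36 to 16.3) had a fold enrichment at least 2-fold higher in *Tyrobp-/-* mice, beside 7.17% of all pairs. A further 55 (14.7%, interval 11.2 to 18.7) were at least 2-fold lower, beside 6.28%. The median log2 ratio of the fold enrichments, *Tyrobp-/-* over WT, was 0.02 (order-statistic interval -0.07 to 0.14), beside 0.05 over all pairs. The quartiles were -0.55 and 0.50, wider than the -0.29 and 0.39 of all pairs, and the extremes were -3.60 and 3.41. The wider spread lay on both sides of equality. Of the 102 pairs past 2-fold, 76 held at least 1 value pair that other peaks also had. Pairs with an FDR below 1e-05 in both lists numbered 138, of which 14 (10.1%) were at least 2-fold higher, beside 4.64% of all pairs with that FDR, and 15 (10.9%) at least 2-fold lower, beside 3.58%. Among the 133 pairs in which neither value pair occurred elsewhere in its list, 11 (8.27%, interval 4.20 to 14.3) were higher, beside 4.65%, and 15 (11.3%, interval 6.45 to 17.9) lower, beside 3.57%.

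**Figure D4:**
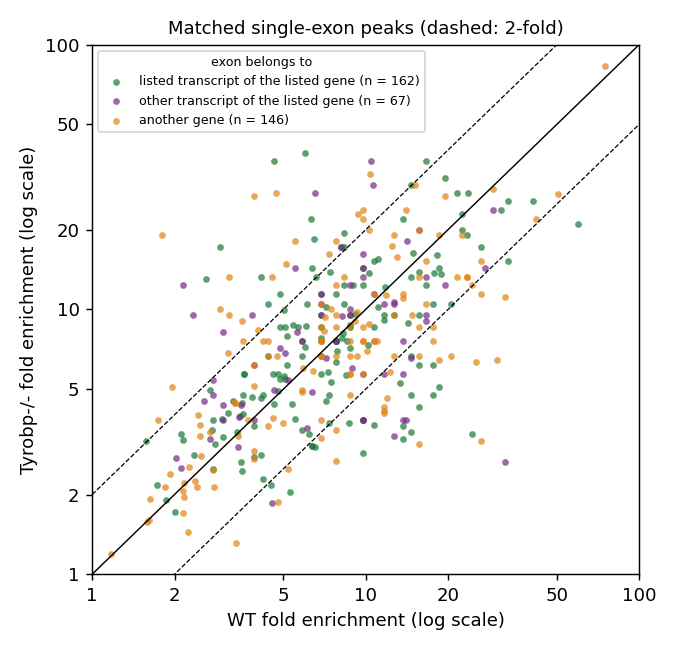
Fold enrichment of each of the 375 pairs in WT (x axis, log scale) and in Tyrobp-/- (y axis, log scale), coloured by the owner of the exon. The solid line marks equal values and the dashed lines 2-fold. The 47 pairs on or above the upper dashed line and the 55 on or below the lower one include all 3 colours.

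Among the pairs with that stricter FDR, *Ttc30a2*, whose product belongs to the intraflagellar transport machinery that builds cilia, was furthest above equality. Its fold enrichment was 5.99 in WT mice (chr2:75976718-75977281) and 39.1 in *Tyrobp-/-* mice, over peaks of 564 bp and 979 bp. A second pair in the same exon had 17.6 in WT mice (chr2:75976303-75976510) and 4.76 in *Tyrobp-/-* mice, with a log10 FDR of -3.61 and -1.04, so the 2 pairs of this gene differed in opposite directions. *Spata6* had 4.71 and 27.6, and the exon under its peak belonged to another gene within it. *Map10*, a microtubule-associated protein gene, had 6.3 in WT mice and 21.9 in *Tyrobp-/-* mice (chr8:125670294-125670859 in WT mice). The log10 FDR of *Map10* was -56.4 in WT mice and -39.1 in *Tyrobp-/-* mice. *Teddm2* (10.5 and 36.2), *Ccni* (10.4 and 32.4), *AC148004* (6.45 and 18.4) and *Pcdhgc4* (10.6 and 29.5) also differed by more than 2.5-fold. A second *Teddm2* pair with that FDR had 12.7 and 10.7. *Bcdin3d*, which encodes an RNA methyltransferase of another kind, had 3.01 and 8.23. *Mvp*, the gene of the major vault protein, had 3.83 and 9.53, and *Gab1*, a docking protein gene of growth factor receptors, had 9.38 and 22.9. For *Ccni* and *Gab1* the exon belonged to another gene.

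*Fzd8*, a Wnt receptor gene, was furthest below equality, with a fold enrichment of 24.4 in WT mice and 3.39 in *Tyrobp-/-* mice. Both of its peaks lay in the single exon of the listed transcript and had a log10 FDR of -17.9 and -8.6. *Hnrnpf* had 30.3 and 6.43 (the *Tyrobp-/-* peak chr6:117905808-117906222 starts at the same base and does not reach the motif shown above). *Fbxl12os*, an RNA from the strand opposite *Fbxl12*, had 59.6 in WT mice and 21 in *Tyrobp-/-* mice, and a second pair, of another transcript, had 5.86 and 7.62. *Gas1*, which encodes a membrane co-receptor of hedgehog signalling, had 13.4 and 5.28 in the exon of its listed transcript (chr13:60175935-60176290 in WT mice). *H3f3aos* had 14.6 and 6.53, and *AC154247* 14.6 and 6.67. The peaks listed to *Six3os1* (32.2 and 11.1) and *Iqck* (18.6 and 6.43) lay in an exon of another gene. A second *Iqck* pair in that exon, also with an FDR below 1e-05 in both lists, had 13 and 15.8. *Sh3gl1*, an endophilin gene, had 4.56 and 1.86, and *Mir6244* was described above. Fold enrichments of one pair can rest on peaks of unequal width, as for *Hnrnpf* and *Ttc30a2*.

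**Figure D5:**
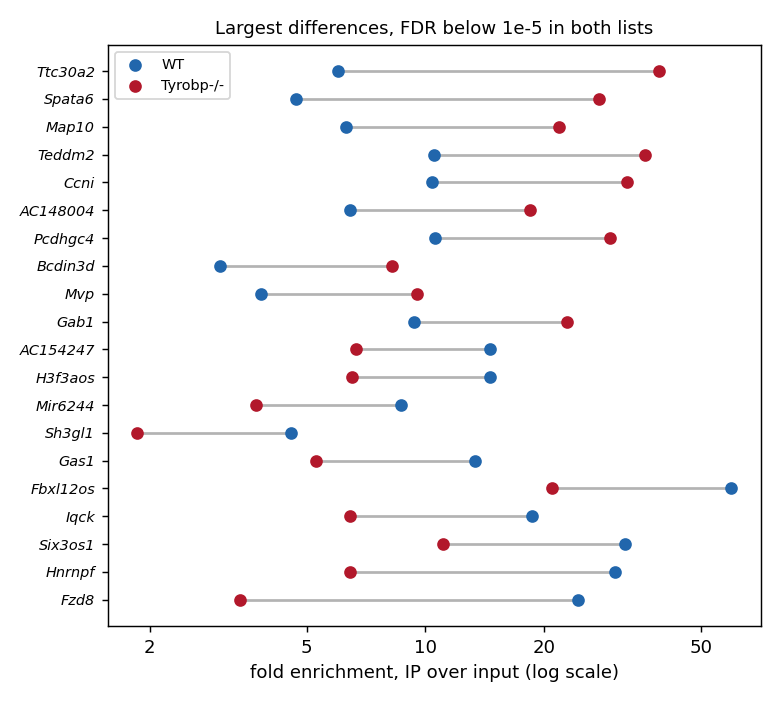
Fold enrichment, IP over input (x axis, log scale), of the 10 pairs furthest above and the 10 furthest below equality (y axis, by gene) among the 138 pairs with an FDR below 1e-05 in both lists, WT in blue and Tyrobp-/- in red. The extremes are Ttc30a2 (5.99 and 39.1) and Fzd8 (24.4 and 3.39).

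G protein-coupled receptors, which pass signals of transmitters and Wnt proteins across the membrane, had single-exon peaks in 10 genes in WT mice and 11 in *Tyrobp-/-* mice, of 62 with any peak. They formed 6 pairs with a median log2 ratio of -0.87, none at least 2-fold higher (7.17% of all pairs) and 3 at least 2-fold lower (6.28% of all pairs) in *Tyrobp-/-* mice. These 3 were *Fzd8*, the adrenergic receptor gene *Adrb1* (6.54 in WT mice and 3.03 in *Tyrobp-/-* mice) and the muscarinic receptor gene *Chrm5* (5.3 and 2.05). The paired *Tyrobp-/-* peak of *Chrm5* had a log10 FDR of -2.82. Other *Chrm5* peaks were not paired, with 3.49 in WT mice and with 2.31 and 5 in *Tyrobp-/-* mice. *Chrm4*, another muscarinic receptor gene, had 8.46 and 5.67, and *Adra2c*, an adrenergic receptor gene, had 7.35 and 4.76. *Gpr3*, whose product keeps cyclic AMP high without a known ligand, had 2.81 and 3.1. With 6 pairs and 1 value per genotype, no difference from other genes was tested.

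Transcription factors had single-exon peaks in 14 genes in WT mice and 12 in *Tyrobp-/-* mice, of 48 with any peak, and none of their 6 pairs reached 2-fold. The pairs of the Sox genes, which encode developmental regulators, differed in direction. *Sox12* had 6.21 in WT mice and 3.4 in *Tyrobp-/-* mice, and the *Sox3* pair had 5.08 and 8.58. A second WT *Sox3* peak of 9.77 overlapped the same *Tyrobp-/-* peak and was not paired, so the direction for *Sox3* depends on the partner. The pairs of the forkhead genes also differed in direction, with *Foxc1* at 5.68 and 8.58 and *Foxl2* at 17.6 and 10.5. *Insm1* (9.77 and 12.4) and *Pou3f4* (4.15 and 2.81) complete the pairs. *Pou3f1* had a peak of 12.6 with a log10 FDR of -159 in *Tyrobp-/-* mice (chr4:124658448-124658925) and none with this annotation in WT mice, although a WT peak with another annotation overlapped it. *Jund*, a subunit of the AP-1 factor, had a peak of 2.48 in WT mice (log10 FDR -44.6) that no *Tyrobp-/-* peak overlapped.

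Long noncoding RNAs of the lists had single-exon peaks in 5 genes in WT mice and 6 in *Tyrobp-/-* mice, and 0 of their 7 pairs reached 2-fold. *Malat1*, an abundant nuclear RNA in which m6A is well known, had 3.83 in WT mice (chr19:5802522-5802672) and 4.65 in *Tyrobp-/-* mice. *Neat1*, the RNA around which paraspeckles form, had 4 peaks in each genotype at 2 places, from 3.14 to 3.54 in WT mice and from 4.07 to 4.5 in *Tyrobp-/-* mice. *Peg13*, an imprinted RNA, had a long peak of 11.8 in WT mice (chr15:72806407-72810324) and 12.2 in *Tyrobp-/-* mice. *Airn*, the imprinted antisense RNA of *Igf2r*, had 32.2 and 13.3 in overlapping peaks that were not paired, in an exon of another gene. *Mirg*, a host of microRNAs, had 3.42 and 3.02.

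Mitochondrially encoded genes are transcribed without introns from a single circular genome, as long precursors that are cut into the separate RNAs. Every peak of an mt- gene was a single-exon peak, 11 in WT mice and 9 in *Tyrobp-/-* mice, counting genes outside the list. Of 5 pairs from the fixed list, none reached 2-fold and the median log2 ratio was 0.26. The respiratory complex I genes *mt-Nd5* (6 and 7.19 for its more enriched peak, 2.76 and 3.83 for the other) and *mt-Nd4* (3.55 and 4.77) had higher values in *Tyrobp-/-* mice. *mt-Nd6* had 4.62 and 4.39, and *mt-Cytb*, of complex III, had 2.36 and 2.83. *mt-Nd2* had 5.37 and 6.03 in overlapping peaks that were not paired, the *Tyrobp-/-* one longer. Another 3 stretches were listed in WT mice only, namely *mt-Nd3* with 8.08 and 2 peaks listed to *mt-Nd4* with 12.3 and 6.93 in the exon of a neighbouring gene. In *Tyrobp-/-* mice only, *mt-Rnr2*, the large ribosomal RNA, had a peak of 2.69, and *mt-Nd4* had a peak of 1.79.

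Ion channels, heat shock and signalling proteins, cell-surface proteins and histones of the lists gave few peaks. The voltage-gated potassium channel gene *Kcna3* had 5.41 in WT mice and 8.77 in *Tyrobp-/-* mice. *Magel2*, an imprinted gene of the Prader-Willi region, gave 3 pairs, with 11.7 and 9.15, 5.06 and 5.45, and 2.12 and 3.4. Its neighbour *Mkrn3* had 14.6 and 13.3. *Pcdhb3*, a protocadherin of neuronal cell surfaces, had 5.16 and 6.19. Histones of the list had 1 single-exon peak in each genotype and gave no pair. These were peaks of *Hist1h2be* in WT mice (3.17) and of *Hist1h1e* in *Tyrobp-/-* mice (3.02). Outside the list, *Hist1h4k* had a single-exon peak of 2.51 in *Tyrobp-/-* mice, with a log10 FDR of -1.67. A wider group of protocadherin genes was also counted, mainly clustered ones, whose large variable exons each hold most of a protein. It had 25 single-exon peaks in 15 genes in WT mice and 37 in 19 genes in *Tyrobp-/-* mice, with medians of 7.45 and 6.19. Over all annotations the group had 175 and 169 peaks. Its lowest WT value, 1.74, equals that of a peak listed to *Pcdh9* on chromosome 14, outside the clusters of chromosome 18. The group may therefore hold genes that are not clustered. *Pcdha11* had a WT peak of 45.4, and its highest *Tyrobp-/-* value was 12.9, in peaks that were not paired. The medians of its 5 WT and 8 *Tyrobp-/-* peaks were 7.45 and 4.735.

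The most enriched single-exon peak of both genotypes was listed to *Zfp961*, a zinc finger gene, at 75.2 in WT mice (chr8:71986765-71987153) and 83.4 in *Tyrobp-/-* mice (chr8:71985841-71987153). The exon belonged to another gene, and the *Tyrobp-/-* peak was 1313 bp wide beside 389 bp in WT mice. The peaks next in order in WT mice were those listed to *Fbxl12os*, *Abhd18* (55.7), *St3gal4* (50.3), *Pcdha11*, *Adcy10* (42 and 40, overlapping peaks), *BC037032* (41) and *Klhdc7b* (33.2). In *Tyrobp-/-* mice they were those listed to *Ttc30a2*, then *Teddm2*, *AC133523* and *Prcp* (36.2 each), *Capn2* and *Ccni* (32.4 each), and *AC165962*, *Abhd18* and *Kcnq1* (31.4 each). For *Abhd18*, *St3gal4*, *Adcy10*, *Capn2*, *Ccni* and *Kcnq1* the exon under these peaks belonged to another gene. *Prcp*, a lysosomal peptidase gene, had 4.64 in WT mice at a log10 FDR of -4.04.

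The gene with the most single-exon peaks was *Kcnq1*, a potassium channel gene of chromosome 7, with 21 in WT mice and 20 in *Tyrobp-/-* mice. All of these lay in 1 exon of another gene. The exon falls where RefSeq places *Kcnq1ot1*, the imprinted antisense RNA that silences its neighbours (chr7:143213111-143296547), and 21 of 21 WT peaks and 19 of 20 *Tyrobp-/-* peaks lay inside that span. The files give the strand of the listed gene and none for the peak itself, and the gene name given to these peaks is that of the host. Their fold enrichment ran from 1.8 to 12.7 with a median of 3.91 in WT mice, and from 1.96 to 31.4 with a median of 8.1 in *Tyrobp-/-* mice. Of 12 pairs, 3 were at least 2-fold higher and 1 at least 2-fold lower in *Tyrobp-/-* mice, beside 7.17% and 6.28% of all pairs. Their median log2 ratio was 0.57, beside 0.05 over all pairs. Only 4 and 7 of the peaks had an FDR below 1e-05. No *Kcnq1* pair past 2-fold had that FDR in both lists. The *Kcnq1* pairs that did had 12.7 and 19.1, 12.5 and 17.3, and 10.3 and 8.82. *Pkdrej*, a single-exon relative of the polycystin genes, followed with 9 peaks in WT mice (3.91 to 17.6) and 10 in *Tyrobp-/-* mice (2.86 to 18.1). *Lcorl* and *Dzip1* had 6 each in WT mice, as did *Nt5dc1*. *Klhdc7b*, *Pcdha11*, *Zfp469*, *Fgfr2* and *Prob1* had 8 each in *Tyrobp-/-* mice, where some overlap each other, since 133 of the 973 peaks overlapped another single-exon peak of the list.

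The widest peaks spanned introns although their annotation names 1 exon, and 21 peaks of WT mice and 15 of *Tyrobp-/-* mice had more than 1 block. A WT peak listed to *Pdzd2* spanned 151126 bp (fold enrichment 12.7) and a *Tyrobp-/-* peak listed to *Bcl9* spanned 69532 bp (9.53). A WT peak listed to *Sp3* spanned 24643 bp, and 2 WT peaks listed to *Psd3* spanned 12486 bp and 12456 bp. Those of *Mir129-2* spanned 13719 bp in WT mice and 13897 bp in *Tyrobp-/-* mice. The other wide *Tyrobp-/-* peaks were those of *Adam12*, *AC124513* and *AW822252*, between 8973 bp and 12191 bp. All 5 of the WT peaks lay in an exon that belonged to another gene.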

How the data were processed

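Hippocampal MeRIP-seq peaks of WT and *Tyrobp-/-* mice were taken from the deposited lists. The authors trimmed reads with fastp, mapped them with HISAT2 to the mouse genome of Ensembl v96 (GRCm38), called peaks with exomePeak on IP against input, and annotated them with ChIPseeker. Versions are not given in the sources used here, nor is the rule by which rows entered the comparison table. The authors deposited counts of valid reads and the percent of G and C bases per library, and for each peak a fold enrichment (ratio of IP over input) and the log10 of its p and FDR. The comparison table also holds the authors' log2 fold changes, p-values and FDR, which were not used. Only its positions and annotation were.

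Peaks were kept where the annotation gave exon 1 of 1 and the gene name did not match Gm and digits, Rik or -ps. Shares have exact 95% intervals (Clopper-Pearson). Of 840 genes in either list, 771 matched RefSeq (GRCm38.p6) by symbol or synonym. Peaks are 1 value per genotype over pooled samples, so nothing was tested. The genes named were the 10 most enriched peaks of each genotype, the 10 pairs furthest above and below equality with an FDR below 1e-05 in both lists, the 5 genes with most peaks (with ties and the top of each list), the 5 widest peaks and examples from 8 lists of gene families. The microRNA genes, the genes with a motif, *Pou3f1*, *Jund*, *Prcp* in WT mice and the protocadherin group were added after their values were seen. The peak set and the lists were chosen with earlier results of these data known. Alternatives were other overlaps, thresholds, centring and 1 peak per gene. Matching and intervals were checked on simulated peaks, in Python 3.11.15 with pandas 2.3.3, scipy 1.17.1, numpy 2.4.6 and matplotlib 3.10.9.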

Additional observations from a re-analysis of the deposited data

How the results depend on the processing

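No paired analysis was possible because the peaks were called on the 3 samples of a genotype together, which also left no way to leave out a sample. Some alternatives below were chosen after seeing the data: the exon of the listed gene only, value pairs held by 1 peak, and planned settings carried over to the other results. With peak-calling FDR below 1e-05 there were 293 WT peaks in 230 genes and 267 *Tyrobp-/-* peaks in 205 genes, with a WT median fold enrichment of 7.02. Of these, 73.7% and 80.5% were found in both lists, beside 89.0% and 88.0% of all peaks with that FDR. Of 143 pairs made after this filter, 15 (10.5%) were higher and 17 (11.9%) lower, beside 4.73% and 3.66% of all such pairs. In genes without a multi-exon annotation there were 437 peaks in 297 genes (WT) and 481 in 308 (*Tyrobp-/-*). With the exon of the listed gene only there were 509 peaks in 368 genes and 538 in 357. Of 228 pairs, 26 (11.4%) were higher and 33 (14.5%) lower, beside 7.17% and 6.28% of all pairs. With value pairs held by 1 peak there were 315 peaks in 250 genes and 317 in 234, with medians of 5.16 and 4.76. Of these, 84.8% and 84.9% were found in both lists, beside 80.0% and 77.9% of all peaks, repeated value pairs included. Of 133 pairs, 11 (8.27%) were higher and 15 (11.3%) lower, beside 4.65% and 3.57% of all pairs of this kind. With 1 peak per gene the medians were 7.35 and 7.62. With a reciprocal overlap of 50%, 33.6% and 31.4% were found in both lists, beside 55.8% and 53.7% of all peaks. Of 259 pairs, 22 (8.49%) were higher and 33 (12.7%) lower, beside 5.51% and 4.92% of all pairs. At 1.5-fold, 82 of 375 pairs (21.9%) were higher and 91 (24.3%) lower, beside 16.3% and 13.5% of all pairs. The other 26 values moved by less than their interval or 1.5 times. They include the median log2 ratio under every alternative run, although its sign, within an interval that spans 0, differed between them. A minimum fold enrichment of 4 was not applied to the medians, which it would set.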
